A study of Rattus norvegicus with 224 samples.

Results

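Myl9, Tagln, Vcl and Pgm5 are 4 genes of the actin and adhesion machinery of smooth muscle, and their scores were followed in cultured rat aortic smooth muscle cells exposed to rapamycin or paclitaxel. Every array feature that the platform annotation assigns to 1 of these symbols was taken, which gave 5 features of the 11575 in the table and 4 of the 6502 named genes. Myl9, Tagln and Pgm5 had 1 feature each (probes 6565, 22054 and 17072), and Vcl had 2 (probes 4189 and 20225). The genes were chosen with the comparison of 1000 ng/mL paclitaxel with DMSO in view, and what led to the choice of Pgm5 is not recorded. The values of all 5 features against 1000 ng/mL paclitaxel, and those of Pgm5 between glucose levels, are therefore description with no test.

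The cells were explanted from the aortas of 1-day-old rat pups and passaged, then held quiescent before treatment. All 224 arrays carried RNA of such cells labelled with Cyanine-5, against a common reference RNA from pooled 1-day-old pups labelled with Cyanine-3. Dishes received DMSO, paclitaxel at 0.01, 1 or 1000 ng/mL or rapamycin at 0.01, 1 or 100 ng/mL, with 100 nM insulin or its PBS vehicle given 30 min before the drug, in medium with 5 or 25 mM glucose set during the last 24 h of quiescence. RNA was taken after 6 or 24 h, which made 56 groups of 4 arrays, with 1 array per replicate run (A to D). DMSO dishes with vehicle were the controls, and every group shared the same cell source and the quiescence step, so the values describe passaged neonatal cells in culture. Whether runs were separate animals or cultures is not stated, so p-values measure the spread between these arrays, which may be technical.

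Contraction of smooth muscle is switched on when myosin light chain kinase phosphorylates the regulatory light chain of myosin. Myl9 encodes the regulatory light chain of smooth muscle and non-muscle myosin II. Tagln encodes transgelin (SM22-alpha), an actin-binding protein of the calponin family that is used as an early marker of smooth muscle differentiation. Vcl encodes vinculin, which links integrin adhesions and cadherin junctions to actin filaments, and Pgm5 encodes aciculin, a phosphoglucomutase relative that sits at adherens junctions and focal adhesions. Many contractile genes are driven by serum response factor (SRF) on CArG boxes together with myocardin or the myocardin-related MRTF proteins, whose entry into the nucleus follows actin polymerisation. TEAD factors with YAP or TAZ drive a second, overlapping set of mechanically responsive genes. Paclitaxel stabilises microtubules, rapamycin inhibits the mTORC1 kinase through FKBP12, and both have been used to coat stents because they limit smooth muscle growth.

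Promoters of 2 of the 4 genes, Vcl and Pgm5, were held in the RefSeq table (build GRCr8), and they are shown as the start regions of the 2 adhesion genes, whose scores are set side by side below. Each line gives the 250 bases before the annotated start on the gene's own strand, 5′ to 3′, and capitals mark the TEAD motif GGAATG (reverse complement CATTCC). The Vcl promoter lies on the minus strand at chr15:3404801-3405050 and the Pgm5 promoter on the minus strand at chr1:231939813-231940062.
Vcl: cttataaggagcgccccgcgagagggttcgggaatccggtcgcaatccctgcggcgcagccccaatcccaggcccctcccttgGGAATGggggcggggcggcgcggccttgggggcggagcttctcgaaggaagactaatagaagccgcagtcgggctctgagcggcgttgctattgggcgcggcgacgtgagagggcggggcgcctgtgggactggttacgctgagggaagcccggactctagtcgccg
Pgm5: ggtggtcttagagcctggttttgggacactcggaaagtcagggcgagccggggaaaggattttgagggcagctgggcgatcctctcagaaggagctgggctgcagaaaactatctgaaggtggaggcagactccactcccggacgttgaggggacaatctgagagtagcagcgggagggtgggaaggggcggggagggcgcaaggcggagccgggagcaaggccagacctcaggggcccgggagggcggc
The TEAD motif stood once in the Vcl promoter, 167 to 162 bases before the start, and not in that of Pgm5. No CArG box lay wholly within the 250 bases of either promoter on either strand, also with 1 mismatch allowed. The Vcl line opens with cttataagg, which matches a CArG box in all but its first letter. That letter lies before the 250 bases and was not read, so a box with at most 1 mismatch spans that edge. Among the 33469 promoters of the table, 12.1% held the TEAD motif, 1.5% an exact CArG box and 18.7% a CArG box with at most 1 mismatch. GC content was 68.4% for Vcl and 64.4% for Pgm5. The motifs do not overlap, and a match is a run of letters, not a measured binding site.

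Each deposited array had a mean of 0 and an SD of 1, so a difference of 1 means 1 SD over the 11575 features of an array and is not a log2 fold change. The features were also nearly centred, with means over the arrays between -0.207 and 0.217, so levels of different features cannot be set against each other. The direction follows the dyes in the labels and is likely cells over reference. The lowest correlation between 2 arrays was -0.526, and 1.46% of pairs were under -0.3. If the direction were turned, every sign below would turn together. Of the 8 smooth muscle markers 5 were measured (Cnn1, Des, Lmod1, Smtn and Tagln), and on centred scores their presence cannot be checked. Of 11575 features, 99.1% varied less than Myl9 over the 224 arrays (SD 2.24), 98.8% less than Tagln (SD 2.15) and 98% less than Pgm5 (SD 1.92). The corresponding shares were 80.1% for Vcl probe 4189 (SD 1.15) and 72.7% for Vcl probe 20225 (SD 1.05).

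Some arrays went against their labels or each other. At 24 h the mean score of 6 tubulin features lay between 1.68 and 4.43 on 15 of the 16 arrays labelled paclitaxel 1000 ng/mL, and between -3.04 and 0.748 on 95 of the other arrays. The run B array labelled paclitaxel 1000 ng/mL with insulin at 25 mM glucose had -0.756, and the run B array labelled DMSO with vehicle at 25 mM glucose had 3.17. The same 2 arrays stood apart for the contractile genes. On the array labelled DMSO, Myl9 was -5.49 and Tagln -6.39, while on the array labelled paclitaxel they were 0.449 and -1.3. Their labels were kept, and the main values that rest on them are also given without them, an alternative chosen after seeing the data. In run A, 2 arrays of 0.01 ng/mL rapamycin at 25 mM glucose and 6 h, labelled insulin and vehicle, were nearly identical (r = 0.99993, with 99.5% of features within 0.01). Leaving these 2 out, or the 2 arrays titled as repeats, changed no call on the 5 features. Without the nearly identical pair, Vcl probe 4189 under insulin at 6 h, described below, was 0.55 in place of 0.529, and Myl9 between 24 and 6 h over 5 conditions was -2.27 in place of -2.24.

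Myl9 and Tagln had the lowest differences of all 11575 features after 24 h of 1000 ng/mL paclitaxel, and Vcl probe 4189 and Pgm5 were also far down the order. Myl9 in DMSO cells had a lowest score of -5.49, a median of -0.556 and a highest of 3.2 (mean -0.532 ± 1.98 SD, n = 16 arrays). Under paclitaxel the Myl9 scores were -7.2, -5.49 and 0.449 in the same order (mean -5.11 ± 2.14, n = 16). The 2 groups overlapped through the 2 run B arrays and the run C array with insulin at 5 mM glucose, which had a Myl9 score of -0.439. The Myl9 difference was -4.58 ± 0.428 (SE; 95% interval -5.42 to -3.73), and it was -5.32, -2.53, -5.7 and -4.75 in runs A to D. Without the 2 run B arrays it was -5.27 ± 0.405, and 14 of the 15 paclitaxel arrays then lay below the lowest DMSO array, at -2.82. In this comparison 1.32% of all features passed the adjusted threshold of 0.05 (limma with Benjamini-Hochberg adjustment over all features, called features from here on), a share that says nothing about genes chosen by it. In whole dishes, fewer cells expressing a gene and less RNA per cell cannot be told apart.

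The 2 vehicle groups showed the Myl9 level with the least scatter. With vehicle at 25 mM glucose the 4 runs gave Myl9 scores of -4.89, -6.61, -5.97 and -5.56 under paclitaxel. With vehicle at 5 mM glucose they gave -5.93, -5.42, -5.39 and -7.13. All 8 of these Myl9 scores were below every DMSO array other than the run B array named above. With insulin the scatter was wider, from -7.2 to 0.449, through the run B array against its label (0.449) and a run C array (-0.439). The remaining insulin arrays lay between -7.2 and -4.4.

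Tagln followed the same arrays. In DMSO cells at 24 h its lowest, median and highest scores were -6.39, -0.738 and 3.07 (mean -0.434 ± 2.22, n = 16), and under 1000 ng/mL paclitaxel they were -8.07, -5.1 and 1.63 (mean -4.73 ± 2.55, n = 16). The difference was -4.3 ± 0.527, the second lowest of all features, with runs A to D at -6.26, -3.94, -4.22 and -2.76. Without the 2 run B arrays it was -4.82 ± 0.53, and 14 of 15 paclitaxel arrays lay below every DMSO array. The exception was again the run C array with insulin at 5 mM glucose, whose Tagln score was 1.63 and whose tubulin mean, 1.83, was on the side of its label.

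The 2 Vcl probes gave different values. For Vcl probe 4189 the DMSO arrays at 24 h had a lowest, median and highest score of -2.62, 0.231 and 2.5 (mean -0.0246 ± 1.39), against -4.14, -2.13 and 0.949 under 1000 ng/mL paclitaxel (mean -1.95 ± 1.21, n = 16 each). The groups overlapped, and the difference was -1.92 ± 0.319, at place 23 from the lowest, with -2.31, -0.0343, -2.79 and -2.56 in runs A to D. The run B value rests on the 2 arrays named above, and without them the difference over all runs was -2.26 ± 0.321, with 11 of 15 paclitaxel arrays below every DMSO array and all 15 below the DMSO median. Vcl probe 20225, assigned to the same gene and transcript, had means of -0.109 ± 0.908 in DMSO and -0.231 ± 0.574 under paclitaxel, a difference of -0.123 ± 0.359 at place 4215. Which of the 2 probes reports the Vcl transcript was not tested, so vinculin is described by probe throughout.

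Pgm5 scores in DMSO cells at 24 h had a lowest, median and highest value of -2.85, 0.232 and 4.38 (mean 0.445 ± 2.18), and under 1000 ng/mL paclitaxel of -4.13, -1.72 and 1.72 (mean -1.35 ± 1.68, n = 16 each). The ranges overlapped widely. The difference was -1.79 ± 0.544, at place 28, and it was below 0 in all 4 runs, between -2.8 and -1.25. Without the 2 run B arrays it was -1.88 ± 0.559.

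**Figure D1:**
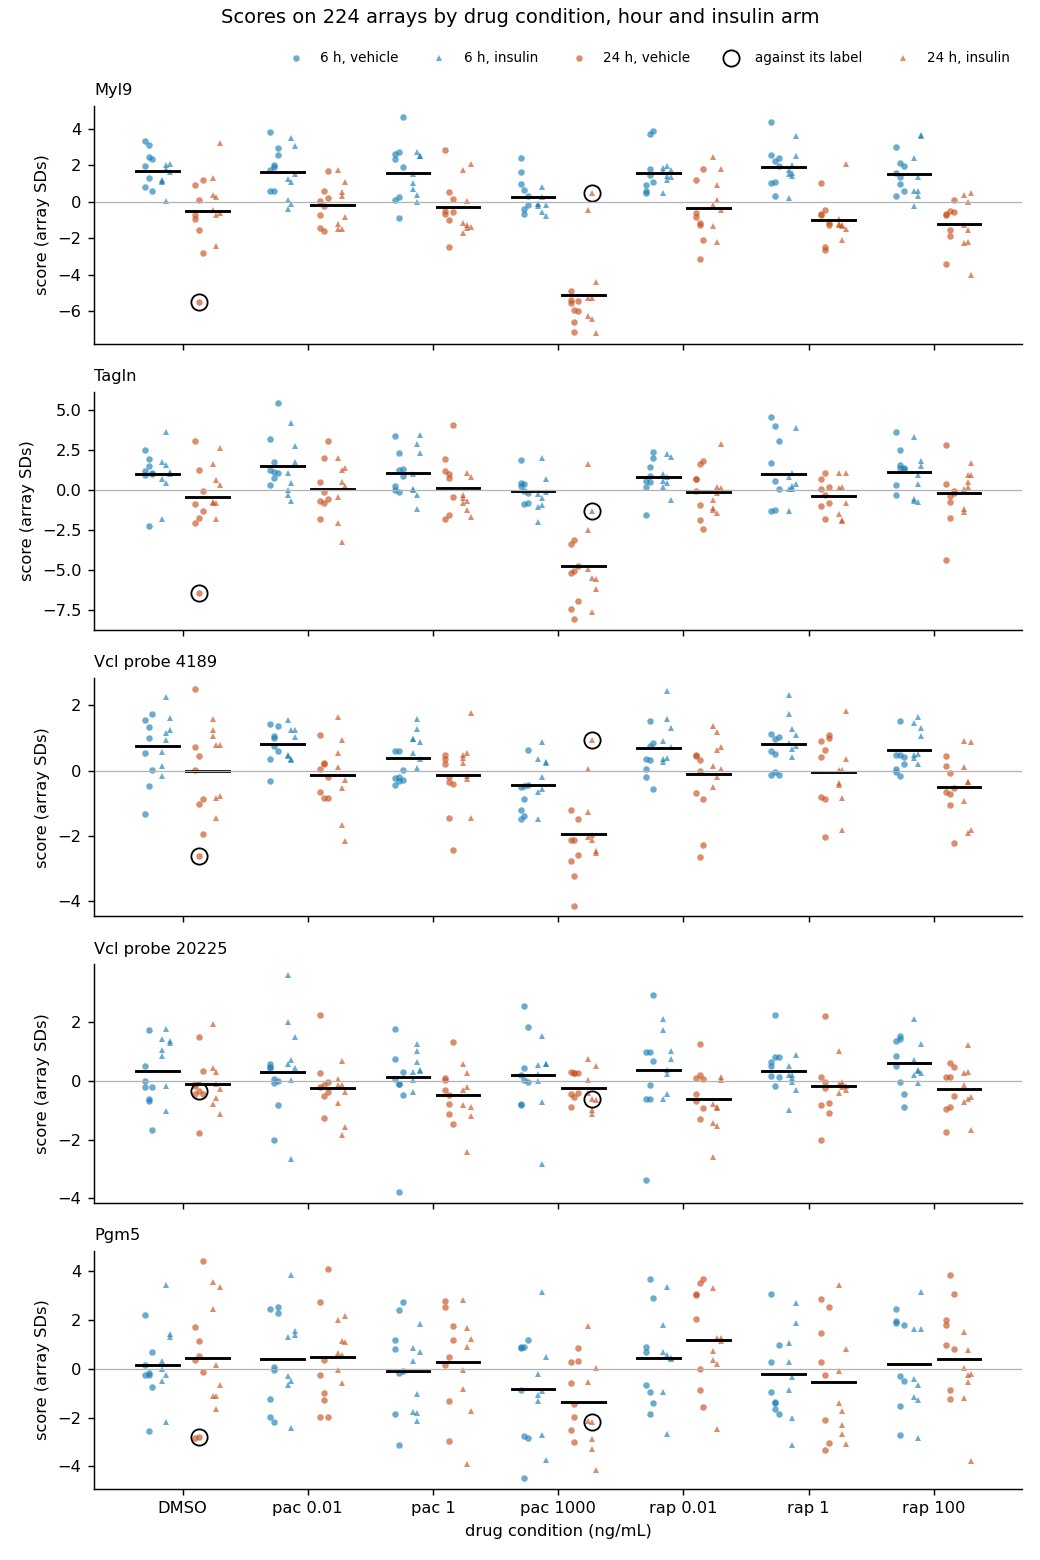
Scores of the 5 features (y axes, in array SDs) in the 7 drug conditions (x axis), at 6 h in blue and 24 h in orange, with circles for vehicle, triangles for insulin, a bar at the mean of 16 arrays and a ring around the 2 run B arrays whose tubulin scores go against their labels. Under 1000 ng/mL paclitaxel at 24 h the Myl9 and Tagln means are -5.11 and -4.73, below those of the other conditions, and that of Vcl probe 20225 is -0.231.

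At 6 h the same dose gave smaller differences. Myl9 in DMSO cells had a lowest, median and highest score of 0.019, 1.71 and 3.34 (mean 1.67 ± 0.893), against -0.807, -0.13 and 2.37 under 1000 ng/mL paclitaxel (mean 0.228 ± 0.865, n = 16 each). The ranges overlapped, and the Myl9 difference was -1.44 ± 0.428, below 0 in all 4 runs (-1.57, -2.28, -1.34 and -0.583). Tagln differed by -1.09 ± 0.527, from a mean of 1.04 ± 1.41 to -0.0561 ± 1.04. Vcl probe 4189 differed by -1.19 ± 0.319, from 0.757 ± 0.936 to -0.433 ± 0.751, and Vcl probe 20225 by -0.127 ± 0.359. Pgm5 went from 0.151 ± 1.48 to -0.848 ± 2.06, a difference of -0.999 ± 0.544. In this comparison 0.294% of all features were called. From the lowest difference up, Myl9 stood at place 19, Vcl probe 4189 at 46, Tagln at 72 and Pgm5 at 97 of 11575.

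Whether insulin or glucose altered these paclitaxel differences was tested as an interaction, which does not use the average in view when the genes were chosen. None of the 5 features was called for insulin or for glucose at 6 or 24 h, against 0% of all features in each of these comparisons by limma (319 to 664 features at an unadjusted p under 0.05). At 24 h the paclitaxel difference with insulin minus that without was 0.233 for Myl9 (95% interval -1.46 to 1.92) and 0.32 for Tagln (-1.76 to 2.4), or 0.177 and 0.67 without the 2 run B arrays. At 24 h the paclitaxel difference at 25 mM minus that at 5 mM glucose was 0.175 for Myl9 (-1.51 to 1.86) and -0.027 for Tagln (-2.11 to 2.06), and -1.21 and -1.08 without the 2 run B arrays. The intervals span more than 3 array SDs, so interactions well above 1 SD in size were not detectable with 8 arrays in each arm. The largest member value was for Pgm5 with glucose at 6 h, 1.8 (-0.346 to 3.95), above 0 in all 4 runs, with an adjusted p of 0.888.

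The lower doses of paclitaxel were set against the same DMSO arrays that entered the choice of the genes. No member was called at 0.01 or 1 ng/mL at either hour, and 0% of all features were called (349 and 599 at an unadjusted p under 0.05 at 6 h, 203 and 215 at 24 h). At 24 h Myl9 had a lowest, median and highest score of -1.6, -0.104 and 1.72 at 0.01 ng/mL (mean -0.183 ± 1.13), and of -2.48, -0.62 and 2.84 at 1 ng/mL (mean -0.301 ± 1.47, n = 16 each). These ranges lay inside that of DMSO, also when its run B array at -5.49 was left out (lowest -2.82), and the Myl9 differences from DMSO were 0.349 (95% interval -0.496 to 1.19) and 0.232 (-0.613 to 1.08). Both rested on run B, at 2.29 and 2.01, the other 3 runs being below 0, and they were 0.0165 and -0.101 without the 2 run B arrays. Tagln differed from DMSO by 0.532 (-0.509 to 1.57) and 0.552 (-0.489 to 1.59), and by 0.182 and 0.202 without those arrays. A direct comparison of 1 with 0.01 ng/mL, which shares no array with the choice, gave -0.118 for Myl9 (-0.962 to 0.727) and 0.0196 for Tagln (-1.02 to 1.06) at 24 h. None of the 5 features and 0% of all features were called in it (421 at an unadjusted p under 0.05 at 6 h and 252 at 24 h).

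The rapamycin doses gave no called member either, and 0 of 5 features is near the shares of all features called, given next. At 6 h rapamycin called 0% of all features at 0.01 ng/mL (397 at an unadjusted p under 0.05), 1.54% at 1 ng/mL and 5.08% at 100 ng/mL. At 24 h it called 0% at 0.01 ng/mL (203 at an unadjusted p under 0.05), 1.47% at 1 ng/mL and 2.25% at 100 ng/mL. Myl9 at 24 h had a lowest, median and highest score of -3.14, -0.564 and 2.43 at 0.01 ng/mL, of -2.63, -1.24 and 2.06 at 1 ng/mL and of -4, -1.01 and 0.485 at 100 ng/mL (n = 16 each). The means ran from -0.326 ± 1.59 through -1 ± 1.17 to -1.23 ± 1.3, and all 3 ranges overlapped with DMSO. Against DMSO, 100 ng/mL gave -0.702 ± 0.428 for Myl9 (-1.55 to 0.143, adjusted p = 0.509), and -1.03 without the 2 run B arrays (adjusted p = 0.18). Against 0.01 ng/mL, with no shared control, it gave -0.908 ± 0.428 (-1.75 to -0.0631, adjusted p = 0.352), below 0 in 3 of 4 runs. That last comparison called none of the 5 features, against 4.03% of all features at 6 h and 1.87% at 24 h.

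Among the other members, Vcl probe 4189 at 24 h differed from DMSO by -0.483 at 100 ng/mL rapamycin (-1.11 to 0.148) and Tagln by 0.29 (-0.751 to 1.33). Leaving out the 2 run B arrays gave -0.637 for Vcl probe 4189 and turned Tagln to -0.0604. Pgm5 differed by -0.992 at 1 ng/mL rapamycin (-2.07 to 0.0828, adjusted p = 0.429) but by -0.0382 at 100 ng/mL (-1.11 to 1.04), or by -1.23 and -0.276 without those arrays. Its score at 1 ng/mL ran from -3.33 through a median of -0.846 to 3.42, a range that overlapped with every other condition. At 6 h the differences of all 5 features from DMSO under rapamycin and the lower paclitaxel doses were between -0.367 and 0.491. Insulin and glucose did not alter the differences under 100 ng/mL rapamycin in a way that passed the test, with 0 of 5 features called and 0% of all features (375 to 762 at an unadjusted p under 0.05). The intervals were again wide, and for Pgm5 with insulin at 24 h the value was -2.08 (-4.23 to 0.0721), and -1.6 without the 2 run B arrays. Each drug condition used the same DMSO arrays, so these differences are not independent of each other.

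**Figure D2:**
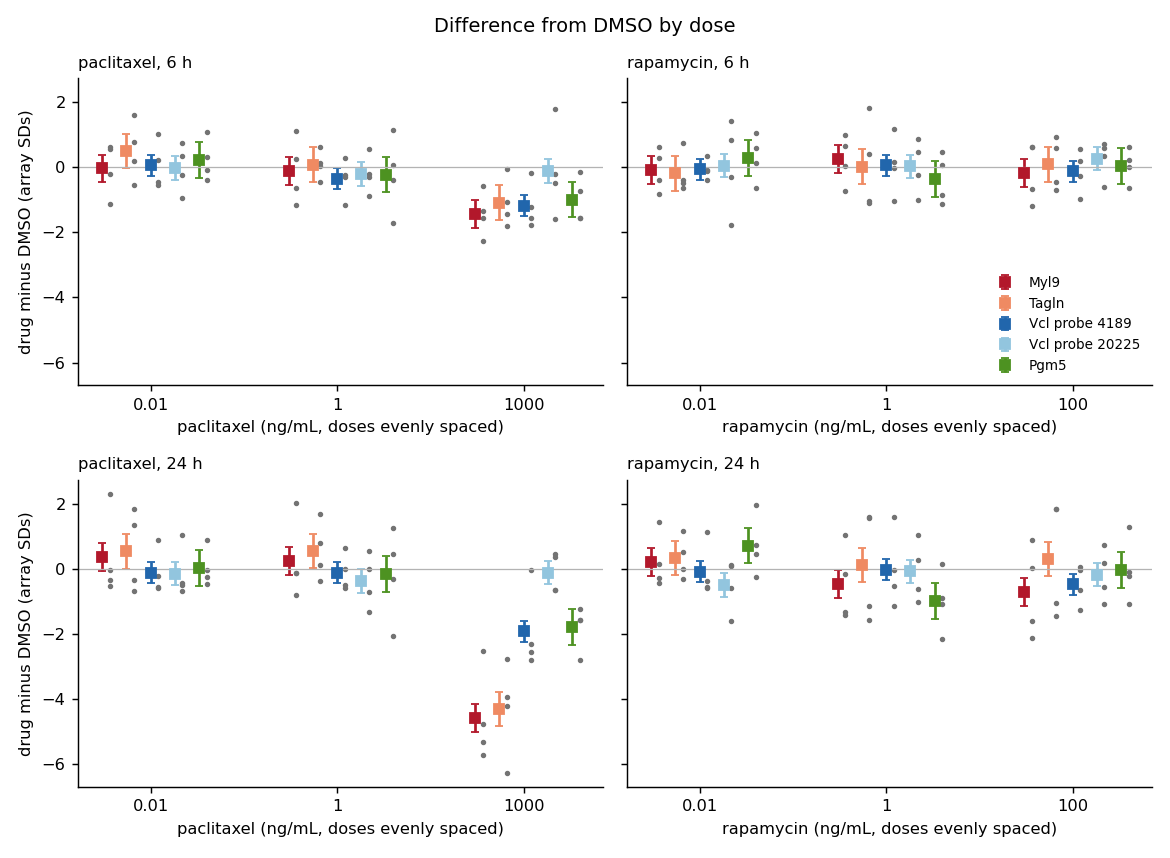
Difference from DMSO (y axis, in array SDs) of the 5 features at each dose of paclitaxel and rapamycin (x axis, 3 doses each) at 6 h and 24 h, as squares with the SE of the limma fit and grey points for the 4 runs. Myl9 at 24 h is at -4.58 ± 0.428 for 1000 ng/mL paclitaxel, 0.232 for 1 ng/mL paclitaxel and -0.702 for 100 ng/mL rapamycin.

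In order of their 24 h means, Myl9 was highest at 0.01 ng/mL paclitaxel, followed by 1 ng/mL paclitaxel, 0.01 ng/mL rapamycin, DMSO, and 1 and 100 ng/mL rapamycin. Neighbours in this order did not differ beyond their spread, since each step between them was under 0.5 array SD and the SDs were 1.13 to 1.98. Without its run B array DMSO had a mean of -0.202 ± 1.53 (n = 15) and came second. Only the step from 100 ng/mL rapamycin, at -1.23 ± 1.3, to 1000 ng/mL paclitaxel, at -5.11 ± 2.14, was larger than the SDs of the groups on either side. For Tagln the 6 other means at 24 h lay between -0.434 and 0.118, and that of 1000 ng/mL paclitaxel was -4.73. The 6 h means of Myl9 outside that dose lay between 1.5 and 1.9.

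Myl9 fell between 6 and 24 h in cells that received no drug. These DMSO arrays also entered the choice of the genes. In DMSO cells its mean went from 1.67 ± 0.893 at 6 h to -0.532 ± 1.98 at 24 h (n = 16 each), and the ranges, 0.019 to 3.34 and -5.49 to 3.2, overlapped. The difference was -2.2 ± 0.428 (95% interval -3.05 to -1.36, adjusted p = 0.00013), with -2.22, -4.48, -0.005 and -2.1 in runs A to D. Run C thus had no difference, and without run B the value was -1.44 (adjusted p = 0.0246). Without the 2 run B arrays it was -1.87 (adjusted p = 0.000536). With the run as the unit of replication the call was lost (adjusted p = 0.231). Of the 5 features 1 was called, against 7.24% of all features. Tagln differed by -1.47 (adjusted p = 0.0695), Vcl probe 4189 by -0.781 (0.131), Vcl probe 20225 by -0.444 (0.556) and Pgm5 by 0.294 (0.842). Leaving out the 2 arrays gave -1.12 for Tagln, -0.627 for Vcl probe 4189 and 0.532 for Pgm5, none of them called.

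The same comparison over the 5 conditions of lower doses and rapamycin shares no array with the choice of the genes, and it was added after seeing the data. Myl9 fell from a lowest, median and highest score of -0.911, 1.52 and 4.65 at 6 h (mean 1.63 ± 1.18) to -4, -0.75 and 2.84 at 24 h (mean -0.61 ± 1.38, n = 80 each). The ranges overlapped, and the difference was -2.24 ± 0.191 (adjusted p = 3.63e-21), between -2.66 and -1.42 in the 4 runs. Tagln fell by 1.2 ± 0.236 (adjusted p = 9.44e-06), from 1.13 ± 1.48 to -0.0715 ± 1.45. Vcl probe 4189 fell by 0.862 ± 0.143 (adjusted p = 1.46e-07) and Vcl probe 20225 by 0.714 ± 0.16 (adjusted p = 0.000113). Pgm5 went from 0.138 to 0.353 (0.215, adjusted p = 0.543). Thus 4 of 5 features were called, against 34.9% of all features, and with the run as the unit only Myl9 was (adjusted p = 0.0232).

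Condition by condition, the Myl9 difference between 24 and 6 h was -2.2 in DMSO, -1.81 and -1.85 at the 2 lower paclitaxel doses, -5.34 at 1000 ng/mL, and -1.91, -2.91 and -2.73 at the rising rapamycin doses. The value at 1000 ng/mL paclitaxel belongs to the choice of the gene and is a description. Dishes at 6 h and 24 h may have been handled as separate sets within a run, and hour and such a set cannot be told apart.

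Insulin, which acts on smooth muscle through the insulin and IGF-1 receptors, raised Vcl probe 4189 at 6 h by a small amount. Over the 7 drug conditions its lowest, median and highest scores were -1.47, 0.329 and 1.73 with vehicle (mean 0.258 ± 0.782) and -1.49, 0.806 and 2.44 with insulin (mean 0.787 ± 0.726, n = 56 each). The ranges overlapped almost wholly. The difference was 0.529 ± 0.171 (95% interval 0.192 to 0.866, adjusted p = 0.0372), above 0 in all 4 runs (0.198 to 0.991) and in all 7 conditions (0.0509 to 0.87). The call was lost without run A (adjusted p = 0.175), run B (0.0517) or run C (0.388), and with the run as the unit (0.254). Of the 5 features 1 was called, against 7.07% of all features. Vcl probe 20225 differed by 0.314 (adjusted p = 0.376), Myl9 by -0.398 (0.336), Tagln by -0.377 (0.504) and Pgm5 by 0.0412.

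At 24 h none of the 5 features was called for insulin over the 7 conditions, against 3.98% of all features. Vcl probe 4189 differed by 0.476 (adjusted p = 0.104), and by 0.379 without the 2 run B arrays. Myl9 differed by 0.495 (adjusted p = 0.264), Tagln by 0.253 and Pgm5 by -0.491 (adjusted p = 0.454). Those of Myl9 and Tagln were 0.297 and 0.103 without these 2 arrays. The insulin difference of Myl9 was thus -0.398 at 6 h and 0.495 at 24 h, and the change between the hours was 0.893 (95% interval 0.254 to 1.53, adjusted p = 0.128), above 0 in all 4 runs, or 0.695 (adjusted p = 0.234) without the 2 arrays. That test called 0 of the 5 features, against 2.12% of all. In DMSO cells alone, with 8 arrays in each arm, insulin called none of the 5 features and 0% of all features (661 at an unadjusted p under 0.05 at 6 h and 410 at 24 h). There the Myl9 difference at 24 h was 1.27 (0.0776 to 2.47), and 0.607 without the 2 run B arrays.

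Pgm5 had higher mean scores at 25 than at 5 mM glucose, which are described with no test. At 24 h, over the 7 drug conditions, its lowest, median and highest scores were -4.13, -0.934 and 3.05 at 5 mM glucose (mean -0.838 ± 1.63) and -3.33, 1.24 and 4.38 at 25 mM (mean 1.08 ± 1.96, n = 56 each). The ranges overlapped. The difference was 1.92 ± 0.291, with 1.48, 0.971, 1.98 and 3.24 in runs A to D. Without the 2 run B arrays it was 2.03 ± 0.291, which was the second highest of the 11575 features. At 6 h the means were -0.6 ± 1.84 and 0.598 ± 1.57, a difference of 1.2 ± 0.291 (0.549 to 2.34 in the 4 runs).

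The Pgm5 difference between glucose levels was above 0 in 13 of 14 conditions and hours. At 24 h it was between 1.57 and 2.35 in all 7 drug conditions. The mean went from -2.19 to -0.504 under 1000 ng/mL paclitaxel and from -0.77 to 1.58 under 100 ng/mL rapamycin. At 6 h it ranged from -0.624 at 1 ng/mL paclitaxel to 2.73 at 1000 ng/mL paclitaxel and at 0.01 ng/mL rapamycin. In DMSO cells it was 1.57 ± 0.77 at 24 h, from -0.34 ± 0.955 to 1.23 ± 2.81, and 2.05 without the 2 run B arrays. The glucose difference of Pgm5 with insulin minus that without, which was tested, was 0.425 at 6 h and 0.673 at 24 h (95% interval -0.475 to 1.82), with 0 of 5 features and 0% of all features called (346 at an unadjusted p under 0.05 at 6 h and 384 at 24 h).

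None of the other 4 features was called between glucose levels. The share of all features called over the 7 conditions was 3.53% at 6 h and 10% at 24 h, and in DMSO cells it was 0.0346% at 6 h and 0.285% at 24 h. Myl9 differed by 0.47 at 24 h (95% interval 0.0186 to 0.922, adjusted p = 0.196), above 0 in 7 of 7 conditions. Tagln differed by -0.516 at 6 h (adjusted p = 0.401), below 0 in 4 of 4 runs, and Vcl probe 4189 by 0.284 at 24 h (adjusted p = 0.325). The change of the glucose difference from 6 to 24 h was not called for any of these 4, against 2.4% of all features. It was 0.605 for Myl9 and 0.72 for Tagln (adjusted p = 0.376 and 0.406), and for Pgm5, untested, 0.723 ± 0.412.

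**Figure D3:**
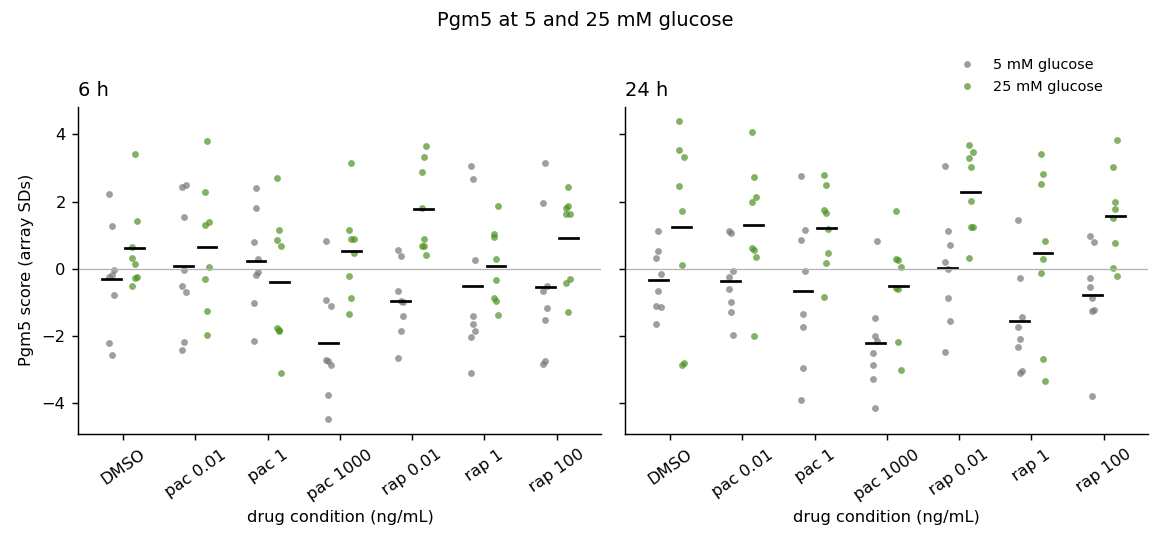
Pgm5 scores (y axis, in array SDs) at 5 and 25 mM glucose in each drug condition (x axis) at 6 h (left) and 24 h (right), with 1 point per array and a bar at the mean of 8 arrays. At 24 h the bar at 25 mM is the higher one in all 7 conditions, by 1.57 to 2.35 array SDs, and the points of the 2 glucose levels overlap.

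The other contractile genes were read beside the members. This list and those below were chosen with earlier results of these data known. Their counts are therefore description and add no support to the member values. Of 28 listed genes 17 were measured, by 22 features, and in 1000 ng/mL paclitaxel at 24 h 5 of the 22 fell while none rose, against 1.32% of all features called in either direction. They were 2 features of Tpm2, which encodes beta-tropomyosin (-1.89 and -1.43), and 1 of 2 features of Actg2, the gamma smooth muscle actin (-1.7). Fhl1, a LIM protein of muscle (-1.16), and Tpm1, alpha-tropomyosin (-0.923), made up the rest. The other Actg2 feature had -0.958 and was not called. The median over the list was -0.605, against -0.00787 over all features, and 20 of 22 values were below 0. The mean of the list lay between -1.22 and -0.114 on the paclitaxel arrays and between -0.548 and 0.385 on the DMSO arrays. Without the 2 run B arrays 5 features also fell, 4 of them the same, with Ldb3 (-1.17) in place of Fhl1. At 6 h no contractile feature was called and the median was -0.534. Of the smooth muscle markers Cnn1, Des, Lmod1 and Smtn, with 4 features, none was called at 24 h. Their differences ran from -0.909 to -0.0852.

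These genes also fell with time. In DMSO cells 5 of the 22 contractile features fell between 6 and 24 h. They were both of Tpm2 (-1.51 and -1.5), 1 of 2 features of Actg2 (-1.37), Fhl1 (-1.3) and Tpm1 (-1.06). The other Actg2 feature had 0.0748 and was not called. The list median was -0.347 against -0.047 over all features, and 7.24% of all features were called. In the 5 conditions of lower doses and rapamycin 11 of the 22 fell, where 34.9% of all features were called in either direction, and the median was -0.339, against -0.0137. Under 100 ng/mL rapamycin, insulin and glucose 0 to 2 of the 22 features were called per comparison, near the shares of all features. At 6 and 24 h these shares were 5.08% and 2.25% for rapamycin and 7.07% and 3.98% for insulin. For glucose they were 3.53% and 10%. Itga7, the laminin-binding integrin alpha-7 chain, rose by 1.31 under 100 ng/mL rapamycin at 6 h. Between glucose levels Itga7 was higher at 25 mM at both hours (0.97 and 0.582) and Cnn1, calponin, at 24 h (0.488), and the call on Cnn1 was lost without the 2 run B arrays. With insulin Lmod1, a leiomodin that nucleates actin, fell by 0.587 at 6 h, and Synpo2, an actin-bundling protein, rose by 0.964 at 24 h, while Itga8 fell (-0.812) once the 2 run B arrays were left out.

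Among 18 features of 15 focal adhesion and actin genes, the vinculin partner Actn1, alpha-actinin 1, was the 1 called under 1000 ng/mL paclitaxel at 24 h (-1.76), and the list median was -0.222. Without the 2 run B arrays Dstn, an actin-severing protein, was called too (-1.1). Actn1 also fell between 6 and 24 h, by 1.02 in DMSO cells, a call lost without the 2 run B arrays, and by 0.919 in the 5 other conditions. The actin-severing Cfl1 fell by 1.3 in DMSO cells. In the 5 conditions 7 of the 18 features fell, where 34.9% of all features were called in either direction, among them Cfl1 (-1.04), both of Dstn (-0.882 and -0.903) and the actin elongation factor Vasp (-0.816). Of 14 features of SRF, MRTF and YAP targets and regulators, 3 fell under paclitaxel at 6 h, against 0.294% of all features called. These were the YAP and SRF targets Ccn1 (-2.85) and Ccn2 (-1.6), and Srf itself (-1.32). At 24 h Ccn1 (-2.62), Ankrd1 (-2.49) and Srf (-1.19) fell, against 1.32%, and 5 features of the list fell without the 2 run B arrays, with Rhoa (-0.852) and a second Srf feature (-1.07) added. The list medians were -0.741 and -0.672. Ankrd1 also fell by 2.13 under 100 ng/mL rapamycin at 6 h, while Rhob, a small GTPase, rose by 1.98, and no member was called there. With insulin Ccn1 fell by 1.02 at 6 h, and Ccn2 (-0.783) and Ankrd1 (-1.05) fell at 24 h, joined by Ccn1 (-0.847) without the 2 run B arrays. Between 6 and 24 h in the 5 conditions 4 of these 14 features rose and 2 fell, where 34.9% of all features were called. Among those that rose were the immediate early genes Egr1 (2.04) and Fos (1.17) and the matrix gene Thbs1 (0.989).

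**Figure D4:**
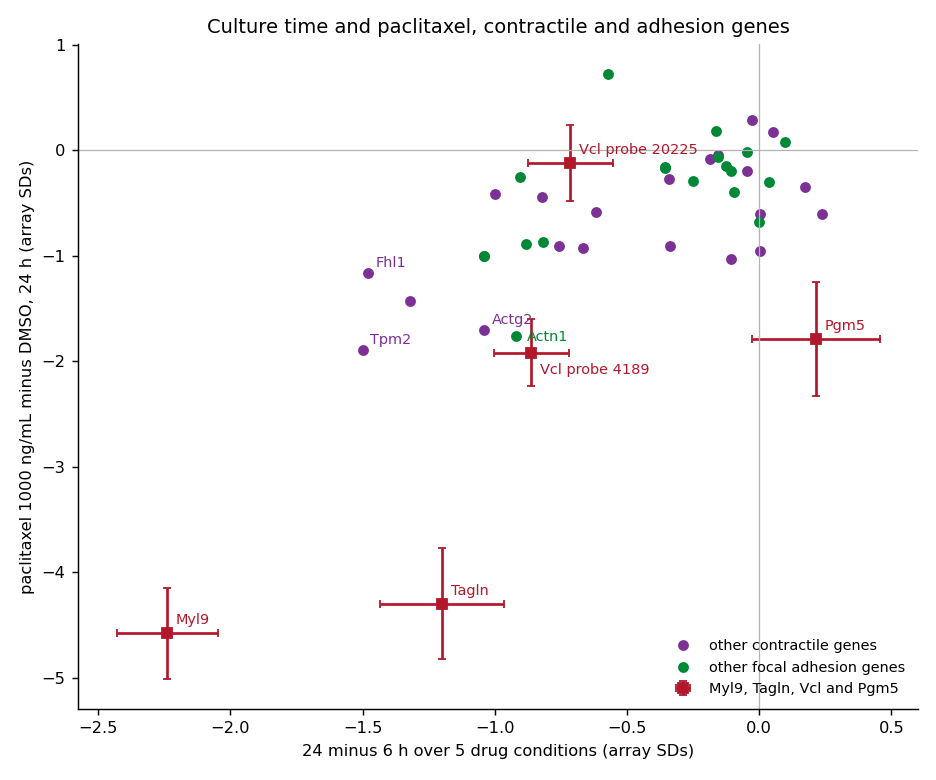
Difference under 1000 ng/mL paclitaxel at 24 h (y axis, array SDs) against the difference between 24 and 6 h over the 5 conditions of lower doses and rapamycin (x axis, array SDs) for the 5 member features (squares with SE), other contractile features (purple) and focal adhesion features (green). Myl9 and Tagln lie lowest, at -4.58 and -4.3. Tpm2, Actn1 and 1 of 2 features of Actg2 are negative on both axes. The other Actg2 feature is at -0.958 on the paclitaxel axis and 0.00176 on the time axis. Pgm5 is negative on the paclitaxel axis but at 0.215 on the time axis.

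Relatives of the members, some of them distant, were read in the same way. Of 14 features of 12 paralogs, none was called under 1000 ng/mL paclitaxel at either hour, against 0.294% of all features at 6 h and 1.32% at 24 h. At 24 h 1238 of all features had an unadjusted p under 0.05. Other myosin light chain genes, not all of them regulatory light chains, had 24 h values of -0.0167 (Myl12b, the non-muscle regulatory light chain), -0.26 (Myl4), -0.213 (Myl3) and -0.406 (Myl7). The calponin family members beside Tagln had -0.582 (Cnn1), -0.108 (Cnn3) and -0.205 (Tagln3). The phosphoglucomutases had -0.0501 (Pgm1), -0.141 (Pgm2) and -0.295 and 0.117 (2 features of Pgm3). The catenins related to vinculin had -0.0817 and 0.0436 (2 features of Ctnna1) and 0.858 (Ctnna2). With time some moved the other way. Over the 5 conditions Ctnna1 (0.97), Cnn3 (0.907), Myl12b (0.751) and Pgm2 (0.27) rose while both Pgm3 features and Cnn1 (-0.616) fell, against 34.9% of all features called. In DMSO cells 1 feature of Ctnna1 rose (1.14), against 7.24%. At 24 h Myl12b was higher at 25 mM glucose (0.66) and Ctnna1 was lower (-0.508), against 10%. Cnn1 was called as higher too, but not without the 2 run B arrays. With insulin at 24 h 1 feature of Pgm3 rose (0.591) and 1 of Ctnna1 fell (-0.469), against 3.98%. That Ctnna1 call was lost without the 2 run B arrays. With insulin at 6 h 1 feature of the list rose, against 7.07%. Under 100 ng/mL rapamycin at 24 h 1 fell, against 2.25%.

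Markers of other cells were read under paclitaxel. None of 6 endothelial, 4 leukocyte, 4 adventitial fibroblast, 4 cartilage and bone and 10 skeletal and cardiac muscle features was called under 1000 ng/mL paclitaxel at either hour, apart from Myh6 (-1.24) at 24 h once the 2 run B arrays were left out. Of all features 0.294% were called at 6 h and 1.32% at 24 h, so lists this short with no call are near that share. At 24 h the mean of the endothelial features lay between -0.776 and 0.52 on the paclitaxel arrays and between -0.418 and 1.37 on the DMSO arrays. The fibroblast mean lay between -0.222 and 1.13 and between -0.469 and 1.38, and the leukocyte mean between -1.21 and 0.906 and between -1.15 and 1.52. For cartilage and bone the ranges were -1.59 to 0.669 and -1.4 to 1.5, and for skeletal and cardiac muscle -1.24 to 0.613 and -0.586 to 0.875. The median differences of these last 2 lists were -0.713 (3 of 4 features below 0) and -0.542 (8 of 10), beside -0.605 for the contractile list, and their part in that value was not tested. The endothelial, leukocyte and fibroblast lists had medians of -0.152, 0.137 and 0.338. The part of such cells in the member scores was not tested. Of 17 synthetic smooth muscle features, which mark the dividing and migrating state, 1 fell under paclitaxel at 24 h, Tpm4 (-1.05). Icam1 (-0.971) joined it without the 2 run B arrays. Under 100 ng/mL rapamycin at 6 h 3 rose, Klf4 (2.25), Vim (1.44) and Cd44 (1.21), against 5.08% of all features called. Klf4 (-0.818) and Cd44 (-0.722) were lower at 25 than at 5 mM glucose at 24 h. There 3 features of the list were higher and 3 lower, against 10% of all features. With insulin 2 were lower at 6 h, against 7.07%, and at 24 h 1 was higher and 3 lower, against 3.98%. Between 6 and 24 h in the 5 conditions 3 rose and 3 fell, against 34.9%.

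The genes most like each member over the 56 group means were found from the correlation r, which is a description, since group means share runs and a common reference. For Myl9 they were Tpm2 (r = 0.9), Tagln (0.895), Cdc42ep2 (0.869), Cryab (0.851) and Vcl by its probe 4189 (0.851), while Vcl probe 20225 had 0.348. Over the 48 groups without 1000 ng/mL paclitaxel, Tpm2 kept r = 0.88 and Cdc42ep2, an effector of the Cdc42 GTPase, 0.852, whereas Tagln had 0.718. For Tagln, Myl9 was followed by Actn1 (0.832), Vcl probe 4189 (0.819, against 0.272 for probe 20225), Cryab (0.784) and Tpm2 (0.783), and without 1000 ng/mL paclitaxel Cryab, a small heat shock protein, had 0.531. Vcl probe 4189 was most like Myl9, Tagln, Actn1 (0.808), Tpm2 (0.794) and Actg2 (0.783).

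Pgm5 and Vcl probe 20225 were most like other genes. For Pgm5 these were Rgs3, a regulator of G-protein signalling (r = 0.763 over 56 groups and 0.781 over 48), Hip1 (0.745), the secreted protease Adamts1 (0.727), the lymphangiogenic growth factor Vegfc (0.725) and Lmcd1 (0.712). For Vcl probe 20225 the highest was Radil (0.651), followed by Get4 (0.61), Nsf (0.61), Srsf3 (0.586) and Rassf7 (0.585). Under 1000 ng/mL paclitaxel at 24 h, of the 15 genes named for their likeness that are no members, Tpm2, 1 of 2 features of Actg2 and Actn1 fell as given above, and so did Cryab (-1.57), Cdc42ep2 (-1.3), Adamts1 (-2.01), Rassf7 (-1.09) and 1 of 2 features of Vegfc (-1.43, the other -0.992). Values for Rgs3, Hip1, Lmcd1, Radil, Get4, Nsf and Srsf3 were not called. Of all features 1.32% were called in this comparison. The 56 groups that gave r include this dose, so these calls are description and add no support to the likeness.

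Within groups, after group and run means were removed, Myl9 varied with Tagln over the 224 arrays (Pearson r = 0.45, Spearman rho = 0.384) and with Vcl probe 4189 (0.425 and 0.359). Myl9 and Pgm5 had 0.348 and 0.352, although over the 48 groups without 1000 ng/mL paclitaxel their group means had r = 0.0603. The 2 run B arrays are among the 224. Leaving out the 2 arrays with the largest Myl9 deviations gave Pearson r of 0.406 with Tagln, 0.37 with Vcl probe 4189 and 0.368 with Pgm5. The 2 Vcl probes had -0.0401 within groups and 0.313 over the 56 group means. These arrays share runs and the reference, and the values are given with no p.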

How the data were processed

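Scores of 11575 features on 224 Agilent Rat 22K 2-colour arrays were used as deposited. Per the series' design text, the authors made these scores by loess normalisation, filters on dim features (under 30) and on features with less than 70% good data, imputation from 3 nearest neighbours, removal of run-related principal components and scaling of each array to mean 0 and SD 1. Which values were imputed is not given in the sources used here. A log2 scale had been planned for, and the tests were run on the scores instead. Features were named from the platform annotation (7473 with 1 symbol, 2 with several, 4100 with none). limma 3.58.1 in R 4.3.3 fitted 56 group means with the run as a replicate block over all arrays (165 residual degrees of freedom, median residual SD 0.811). Contrasts of group means were tested two-sided with eBayes and Benjamini-Hochberg adjustment over all features at 0.05. Over 36 comparisons, 175 tests of members were made and 6 were called. The number of arrays limits the precision.

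Named were all 5 member features, the 5 most correlated genes of each, all paralogs, and at most 5 called genes per list and comparison. The members and lists were chosen with earlier results of these data known. The alternatives were no replicate block, run by hour as a block, only the groups compared, trend and robust prior, the run as the unit, 2 rescalings, the mean of the Vcl probes, and leaving out each run or doubtful arrays. The 24 against 6 h comparison over 5 conditions, the changes of the insulin and glucose effects and the 2 run B arrays were added after seeing the data. Deviations of arrays of 1 run correlated at 0.021 on average, 0.0654 within the same hour, against -0.007 between runs, and the labels name no shared animal. The labels and the design text differ on dish size, serum and length of quiescence. Sequences are from RefSeq (GRCr8), and the fit was tested on simulated data.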

Additional observations from a re-analysis of the deposited data

Results flagged for a closer look

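Of the 280 groups of 4 arrays (5 features in 56 groups), 12 had 1 array whose gap to the nearest of the others exceeded Dixon's 95% critical value for the share of the group's range, and chance gives about 1 in 20. For Myl9 at 24 h these were run C with insulin and 1 ng/mL paclitaxel at 5 mM glucose (1.74, against -1.46 to -1.29 in the other 3), run B with vehicle and 1 ng/mL paclitaxel at 25 mM (0.534, against -0.683 to -0.506) and run C with insulin and 1 ng/mL rapamycin at 25 mM (2.06, against -1.29 to -1.21). For Myl9 at 6 h they were run C with insulin and 1 ng/mL rapamycin at 25 mM (3.58, against 1.51 to 1.75) and run B with insulin and 100 ng/mL rapamycin at 5 mM (3.66, against 0.322 to 0.576). Run C thus held 3 of the 5 high Myl9 arrays.

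For Tagln they were run C with vehicle and 1000 ng/mL paclitaxel at 25 mM and 6 h (-0.807, against 0.257 to 0.474) and run C with insulin and 0.01 ng/mL rapamycin at 25 mM and 24 h (2.89, against -1.44 to -1.09). Vcl probe 4189 had run C with insulin and 1 ng/mL paclitaxel at 25 mM and 24 h (1.77, against 0.384 to 0.536) and run D with vehicle and 1 ng/mL rapamycin at 5 mM and 6 h (-0.033, against 0.961 to 1.13). Vcl probe 20225 had run B with insulin and 0.01 ng/mL rapamycin at 5 mM and 24 h (0.138, against -0.916 to -0.797). Pgm5 had run A with vehicle and 1000 ng/mL paclitaxel at 25 mM and 6 h (-0.869, against 0.88 to 1.15) and run C with vehicle and 1 ng/mL rapamycin at 5 mM and 6 h (3.06, against -1.85 to -1.4). What set these arrays apart was not tested.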

How the results depend on the processing

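No called value changed sign under any alternative. With the run as the unit, where the contrast is computed in each of the 4 runs, Vcl probe 4189 under insulin at 6 h kept 0.529 but lost its call (adjusted p = 0.254), as did Myl9 between 24 and 6 h in DMSO cells (-2.2, adjusted p = 0.231), so each of these comparisons then had 0 of 5 features called. Over the 5 conditions 1 feature was then called in place of 4, since Tagln (-1.2, adjusted p = 0.0616), Vcl probe 4189 (-0.862, 0.111) and Vcl probe 20225 (-0.714, 0.0644) lost theirs. Leaving out each run in turn, Vcl probe 4189 under insulin at 6 h ranged from 0.375 to 0.64 and the count from 0 to 1. Without run B, Vcl probe 4189 was called for insulin at 24 h (0.55, adjusted p = 0.0426), and without run C for glucose at 24 h (0.638, 0.0131) and for 24 against 6 h in DMSO cells (-1.4, 0.00996), which moved those counts between 0 and 1, 0 and 1, and 1 and 2. Myl9 between 24 and 6 h in DMSO cells ranged from -2.94 to -1.44 without a run. With arrays replaced by normal scores of ranks, 2 features were called in that comparison, since Tagln was added (-1.42, adjusted p = 0.023), and the differences under 1000 ng/mL paclitaxel at 24 h were -2.54 for Myl9 and -2.47 for Tagln on that compressed scale. With the mean of both Vcl probes the insulin difference at 6 h was 0.422 (adjusted p = 0.0228), and that under 1000 ng/mL paclitaxel at 24 h was -1.02. With no replicate block, Vcl probe 4189, insulin vs vehicle over 7 drug conditions, 6 h, kept 0.529 (adjusted p = 0.0422), and the block changed no call on the 5 features. Without the 2 run B arrays 250 features were called under 1000 ng/mL paclitaxel at 24 h in place of 153, and no member call changed. With run by hour as a block, comparisons of hours could not be fitted and were not run. Counts over all features depended more on the setting, and the background shares move with them. With the run as the unit, paclitaxel at 1000 ng/mL called 1 feature in place of 34 at 6 h and 46 in place of 153 at 24 h. Rapamycin then called 9 in place of 178 (1 ng/mL, 6 h), 0 in place of 170 (1 ng/mL, 24 h), 163 in place of 588 (100 ng/mL, 6 h) and 59 in place of 261 (100 ng/mL, 24 h). Its 100 against 0.01 ng/mL comparisons called 162 in place of 467 and 30 in place of 217. Insulin called 0 in place of 818 and 461, glucose 206 in place of 409 and 0 in place of 1159 (in DMSO cells 1 in place of 4 and 0 in place of 33), the changes between hours 0 in place of 245 and 278, and 24 against 6 h 5 in place of 838 and 255 in place of 4034. With run by hour as a block, counts were 61 for 1000 ng/mL paclitaxel at 6 h, 262 for 1 ng/mL rapamycin at 24 h, 96 for glucose in DMSO cells at 24 h, and 409 and 461 for the changes between hours of insulin and glucose. With the groups compared alone they were 102 for 1 ng/mL rapamycin at 24 h and 0 for glucose in DMSO cells at both hours, and with normal scores 0 for the latter at 6 h. Leaving out a run lowered most counts, for example that for 1000 ng/mL paclitaxel at 24 h to 35 (run D), that for insulin at 24 h to 6 (run C) and that for 24 against 6 h in DMSO cells to 354 (run C). Glucose in DMSO cells at 24 h called 16 in place of 33 without the 2 run B arrays.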
